A study of Mus musculus with 2 samples.

Results

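Red cells build their membrane and their haem from a small set of proteins, and short fragments of 9 of the mRNAs concerned were followed in small RNA libraries of fetal mouse liver. The 9 genes were Slc4a1, Spnb1, Ank1, Slc25a37, Slc25a39, Fech, Alas2, Tfrc and Car2, out of 16128 genes with at least 1 read in the RefSeq annotation class. The fragments counted were the RefSeq class sequences that the deposited table names by 1 of these symbols, 4436 of 1085452 distinct sequences. All 9 genes had 100 or more reads over both libraries and entered every count below. Livers were taken at E18.5 from mice of strain B6/129, either Ago2ADH, whose Argonaute 2 is catalytically inactive, or wild type. Each genotype is 1 library of total RNA cut from a gel at 19 to 30 nt, and the labels do not say how many livers went into it. With 1 library per genotype there is no replicate check and no p-value, and every interval covers counting error only.

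The red cell membrane is held by a spectrin network that ankyrin ties to the anion exchanger band 3. Haem is begun and finished in mitochondria, where erythroid 5-aminolevulinate synthase makes the first precursor and ferrochelatase inserts the iron, while the transferrin receptor brings iron into the cell. Fetal liver is the main site of red cell formation before birth, and erythroid cells lie there beside the hepatocytes.

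The Ago2ADH library held 7046197 reads, of which 845938 were of the RefSeq class, and the wild type library held 7599870 reads, of which 968145 were. Reads were 15 to 34 nt long, beyond the stated gel limits on both sides. Fragments of the targeted gene, listed under its older symbol Eif2c2, numbered 318 in Ago2ADH and 229 in wild type, giving a log2 ratio of 0.58 (0.33 to 0.83). A count does not check a catalytic change. Levels are given as RPM, the reads of a gene scaled to 1000000 reads of the library. Hepatocyte marker genes summed to 15840 RPM in Ago2ADH and 15740 RPM in wild type, and all 30 had reads, so the liver label holds in both. Globins and their partner had 1052 RPM in Ago2ADH and 1669 RPM in wild type.

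The fragments were many different pieces of each mRNA rather than a few repeated ones. Of the 4436 sequences, 3780 were read once, and 57 were read in both libraries. Sequences that cross an exon junction are shown first, since they match spliced RNA and not the genome. They belong to the class the authors called non_genomic, which has 0 genome matches and is not part of the RefSeq class. Lower case marks the upstream exon and capitals the downstream exon, all in coding sequence, as read in the deposited table.
Slc4a1: cacctacttccctggcaagCTGCGTAGA
Spnb1: tatcccactccttgaccccgaagATGTC
Slc25a37: agcagaagTGGTGAAACAGCGC
Slc25a39: tctcagagaccctcggcaaccagcgAA
Alas2: agacagACCTGCTGAGCACCA
Car2: tttgaagATTGGACCTGCCTCACAA
The Slc4a1 read joins exons 14 and 15 and was seen 2 times in Ago2ADH and 0 times in wild type. The Slc25a37 read joins exons 3 and 4, with 0 reads in Ago2ADH and 3 in wild type. The Alas2 read joins exons 3 and 4 and had 4 reads in Ago2ADH and 0 in wild type. Single sequences are thus too rare to compare, and all comparisons below use sums per gene.
As examples of the reads summed below, a gene's most-read RefSeq class sequence is shown where it lies in coding sequence. Each one shown tied in reads with another sequence of its gene. Each has 1 genome match, and nothing in them is marked by capitals.
Ank1: cgaaagacaatgaagtacgaggac
Alas2: cattgtcctttcatgctgtcagaactcc
The Ank1 sequence, at transcript positions 4423 to 4446, had 3 reads in Ago2ADH and 0 in wild type. The Alas2 sequence, at positions 331 to 358, had 4 reads in Ago2ADH and 0 in wild type.

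A second set shows where iron status is read in these mRNAs. Iron-responsive elements are hairpins with a CAGTGN loop that iron regulatory proteins bind, in the 5′ untranslated region of Alas2, where binding blocks translation, and in the 3′ untranslated region of Tfrc, where binding protects the mRNA. A search for this loop with 5 paired bases on each side and a C before them, on the transcript strand, found it in 2 of the 9 transcripts and in 0.806% of 33356 transcripts paired with RefSeq (GENCODE M21, GRCm38). Capitals mark the loop.
Alas2, positions 86 to 111: ggttcgtcctCAGTGCagggcaacag
Tfrc, positions 3317 to 3342: ttatcggaagCAGTGCcttccataat
Tfrc, positions 3696 to 3721: ttatcgggagCAGTGTcttccataat
Tfrc, positions 3761 to 3786: atatcggagaCAGTGAtctccatatg
Tfrc, positions 3808 to 3833: ttatcgggaaCAGTGTttcccataat
The Alas2 element was overlapped by 0 reads in Ago2ADH, a count that allows up to 3, and by 4 reads in wild type. Among the 4 Tfrc elements, the last was overlapped by 1 read in Ago2ADH, and the remaining 3 by 0 reads in either library. Differences at the elements were not detectable at this depth.

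Fragments of the 9 genes together were somewhat fewer in Ago2ADH. They summed to 2286 reads (324 RPM) in Ago2ADH and 2930 reads (386 RPM) in wild type, giving a log2 ratio of Ago2ADH to wild type of -0.25 (95% counting interval -0.33 to -0.17). Intervals lay below 0 for 5 genes (Slc4a1, Slc25a37, Fech, Alas2 and Car2), above 0 for Tfrc, and on both sides of 0 for Spnb1, Ank1 and Slc25a39. Across the 3329 RefSeq genes with 100 or more reads, 9.31% had an interval below 0 and 10.3% had one above 0. The median log2 ratio was -0.24 over the 9 genes, with a range of -0.61 to 0.47, and 0.0040 over the 3329. Fewer cells of a type and less RNA per cell cannot be told apart here, nor can mRNA level and mRNA breakdown.

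**Figure D1:**
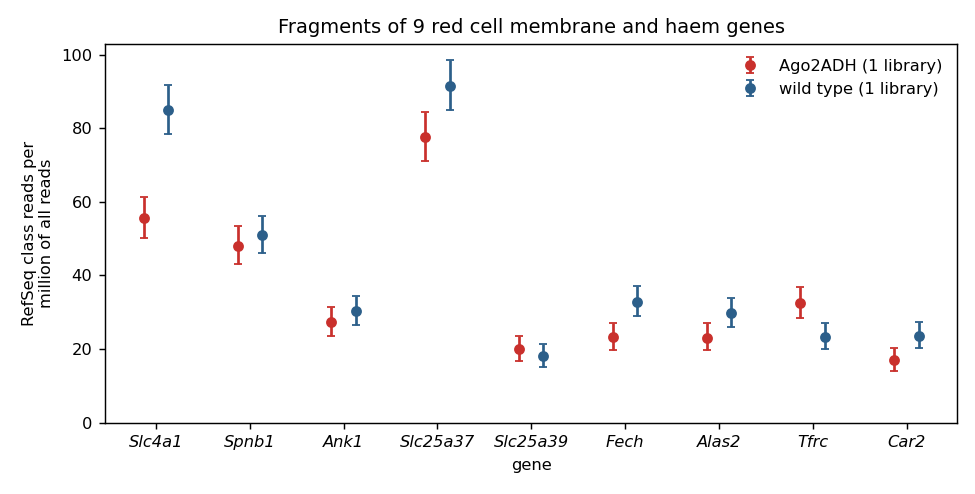
RefSeq class RPM (vertical axis) for each of the 9 genes, with Ago2ADH left of wild type; points are single libraries and bars the 95% counting interval. Slc4a1 shows the widest gap, 55.6 in Ago2ADH and 84.9 in wild type, and Tfrc is higher in Ago2ADH.

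A gene was said to have risen or fallen only if it had 100 or more reads over both libraries, a ratio of 2 or more or 0.5 or less, and an interval excluding 1. None of the 9 genes met this rule (0 of 9). Among all 3329 genes, 0.511% were lower and 0.391% higher by that rule.

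**Figure D2:**
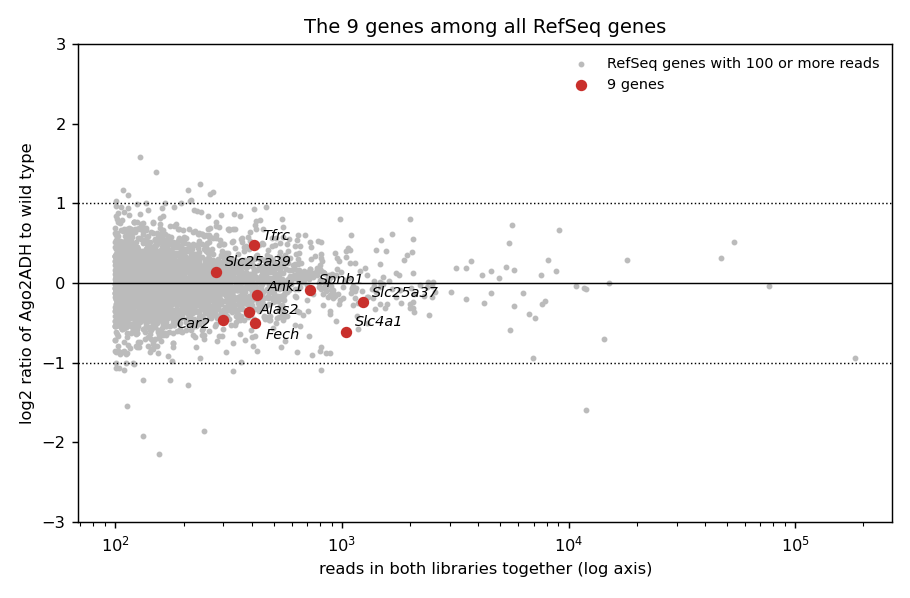
Log2 ratio of Ago2ADH to wild type (vertical axis) against reads in both libraries together (horizontal log axis) for 3327 RefSeq genes with 100 or more reads in grey and the 9 genes in red; 2 genes lie beyond the vertical limits, and dotted lines mark 2-fold. All 9 genes lie between the dotted lines, Slc4a1 lowest at -0.61 and Tfrc highest at 0.47.

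Where a read lies matters for these sums. RefSeq class reads were matched exactly to the spliced transcript paired with each gene's accession. Of the reads of the 9 genes, 63.4% in Ago2ADH and 69.6% in wild type lay on it, and over all RefSeq genes with a paired transcript 55.1% and 59.7% did. The rest lay outside it. Of the outside reads of the 9 genes, 171 in Ago2ADH and 138 in wild type matched other annotated transcripts of the same gene. A further 9 in Ago2ADH and 19 in wild type matched the opposite strand of its transcripts. Since no genome sequence was used, the remainder cannot be divided into introns and other sequence. On spliced transcripts the 9 genes had 1449 reads in Ago2ADH and 2038 in wild type, giving a log2 ratio of -0.38 (-0.48 to -0.29). The sum of all RefSeq reads so placed gave -0.20, and the median over 1275 genes with 100 or more such reads was -0.06. Outside them the 9 genes had 837 reads in Ago2ADH and 892 in wild type, giving a log2 ratio of 0.02 (-0.12 to 0.16). The sum of all RefSeq reads outside gave 0.07, and the median over 1478 genes with 100 or more such reads was 0.05. Sums over the whole class weigh each gene by its reads, so a few deeply read genes can set them. The part of single genes in these class sums was not tested. Without Slc25a37, the other 8 genes had 538 outside reads in Ago2ADH and 640 in wild type, giving a log2 ratio of -0.14 (-0.31 to 0.03), an alternative added after seeing the data.

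On the spliced transcript 4 of 9 genes had an interval below 0 (Slc4a1, Slc25a37, Fech and Alas2) and 1 above 0 (Tfrc). Of 1275 genes with 100 or more such reads, 13.7% lay below 0 and 8.47% above. The ratio on the spliced transcript minus the ratio outside it was -0.40 (-0.57 to -0.23) for the sum. Over the sum of all RefSeq class reads, which a few deeply read genes can set, it was -0.27. Its median was -0.12 over 1551 genes with 50 or more reads in both places. Without Slc25a37 the difference for the other 8 genes was -0.16 (-0.35 to 0.04). The interval of that difference lay below 0 for Slc25a37 alone among the 9 genes, and for 9.54% of the 1551 genes.

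The non_genomic class reads across exon junctions are a set that the gene rule did not use. They numbered 112 in Ago2ADH and 200 in wild type for the 9 genes, a log2 ratio of -0.73 (-1.07 to -0.39), and 311 of these 312 reads crossed an annotated junction. All non_genomic reads named by a RefSeq mRNA summed to a log2 ratio of -0.0085 (-0.03 to 0.01). Intervals lay below 0 for Slc4a1 and Car2 and above 0 for 0 genes. Of 291 genes with 20 or more reads, 7.22% lay below 0 and 7.9% above, and 8 of the 9 genes had that many.

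**Figure D3:**
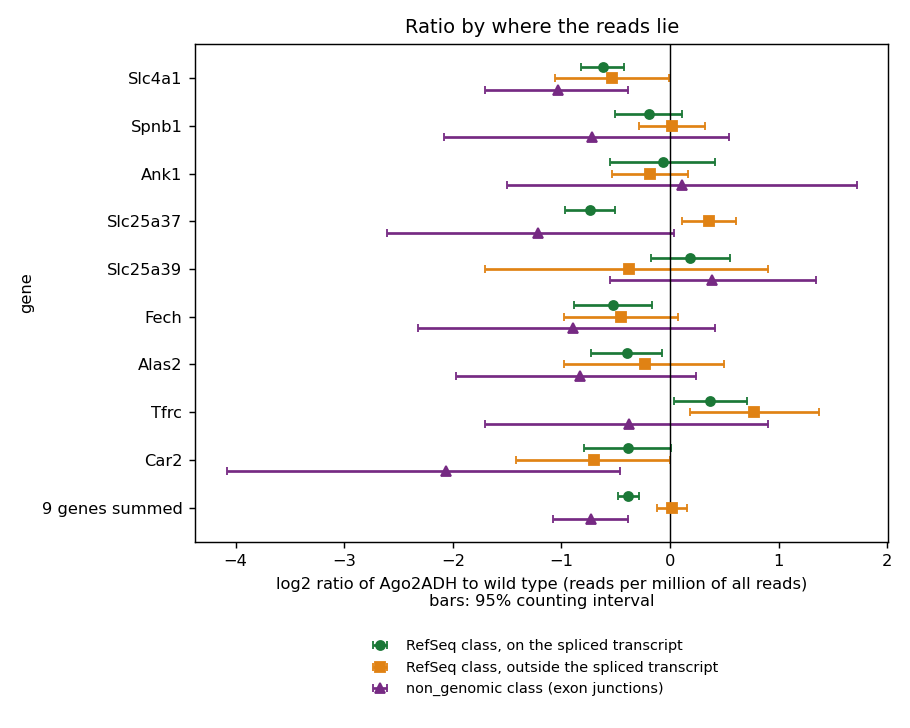
Log2 ratio of Ago2ADH to wild type (horizontal axis, bars 95% counting interval) for each gene and their sum, split into RefSeq class reads on the spliced transcript (circles), outside it (squares) and non_genomic class reads (triangles). For Slc25a37 the circle at -0.74 and the square at 0.36 lie on opposite sides of 0.

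Among the membrane genes, Slc4a1 differed most. It encodes band 3, the chloride and bicarbonate exchanger of the red cell (GRCm38 chr11:102348824-102366203, minus strand, 20 exons). Slc4a1 had 392 reads (55.6 RPM) in Ago2ADH and 645 reads (84.9 RPM) in wild type, giving a log2 ratio of -0.61 (-0.79 to -0.43), or 1.53-fold higher in wild type. The 3 kinds of reads lay on the same side, at -0.62 on the spliced transcript, -0.53 outside it and -1.03 (-1.70 to -0.39) across junctions. Both parts of the mRNA were lower beyond counting error, with coding sequence at 214 reads in Ago2ADH and 363 in wild type (-0.65), and the 3′ untranslated region at 114 in Ago2ADH and 184 in wild type (-0.58). Fragments covered 60.1% of Slc4a1 transcript bases in Ago2ADH and 74.3% in wild type.

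The 2 other membrane genes differed by less than counting error. Spnb1, named Sptb in the annotation, encodes the beta chain of erythroid spectrin (chr12:76580488-76710547, minus strand). Spnb1 had 338 reads (47.97 RPM) in Ago2ADH and 387 reads (50.9 RPM) in wild type, giving a log2 ratio of -0.09 (-0.30 to 0.13). Only 47.9% of its reads in Ago2ADH and 51.7% in wild type lay on the spliced transcript, and its annotated 3′ untranslated region of 2737 nt held 2 reads in Ago2ADH and 0 in wild type. Ank1 encodes erythroid ankyrin, which links spectrin to band 3 (chr8:22974844-23150497, plus strand). Ank1 had 193 reads (27.4 RPM) in Ago2ADH and 230 reads (30.3 RPM) in wild type, giving a log2 ratio of -0.14 (-0.43 to 0.14). The share on its spliced transcript was the lowest of the 9 genes in both libraries, 35.8% in Ago2ADH and 33.9% in wild type.

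Ank1 also hosts a microRNA. Mir486 lies within it (chr8:23142555-23142682, plus strand), and reads of mir-486 numbered 16645 in Ago2ADH and 11526 in wild type, giving a log2 ratio of 0.64 (0.60 to 0.67) scaled to all reads. The fragments of the host gene outside its spliced transcript numbered 124 in Ago2ADH and 152 in wild type, giving a log2 ratio of -0.18 (-0.54 to 0.17). The host and its microRNA thus had values on opposite sides of 0, that of Ank1 within counting error.

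Of the 2 mitochondrial carriers, Slc25a37 had an interval below 0 and Slc25a39 one that included 0; the intervals overlap, and the difference between these genes was not tested. Slc25a37 encodes mitoferrin 1, which carries iron into the mitochondria of red cell precursors (chr14:69241848-69285112, minus strand). Slc25a37 had 546 reads (77.5 RPM) in Ago2ADH and 696 reads (91.6 RPM) in wild type, giving a log2 ratio of -0.24 (-0.41 to -0.08). Scaled to RefSeq class reads, its interval included 0 (-0.32 to 0.0082), and with median-of-ratios scaling it lay below 0 (-0.41 to -0.08). The value for all Slc25a37 reads joins opposite ones, on and outside the paired transcript. On the spliced transcript Slc25a37 had 247 reads in Ago2ADH and 444 in wild type (-0.74, interval -0.97 to -0.51), and outside it 299 in Ago2ADH and 252 in wild type (0.36, interval 0.11 to 0.60). The share of Slc25a37 reads on the spliced transcript was 45.2% (exact binomial interval 41.01 to 49.5) in Ago2ADH and 63.8% (60.1 to 67.4) in wild type, so the intervals did not overlap. The difference between the log2 ratios was -1.09 (-1.42 to -0.76).

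Of the outside reads of Slc25a37, 92 in Ago2ADH and 58 in wild type matched other annotated transcripts of that gene. The outside value of 0.36 and the difference of -1.09 include these reads. Whether the outside ratio differs from 0 without them was not tested. Its 3′ untranslated region held 193 reads in Ago2ADH and 353 in wild type (-0.76), and its coding sequence 54 in Ago2ADH and 89 in wild type (-0.61). Both regions of Slc25a37 were therefore lower beyond counting error. Slc25a39, a carrier of the same family that takes glutathione into mitochondria (chr11:102402985-102407946, minus strand), had 141 reads (20.01 RPM) in Ago2ADH and 138 reads (18.2 RPM) in wild type, giving a log2 ratio of 0.14 (-0.21 to 0.49). Nearly all Slc25a39 reads lay on the spliced transcript, 92.9% in Ago2ADH and 89.9% in wild type.

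Fragments of both haem enzymes were lower in Ago2ADH per all reads, Fech also when scaled to RefSeq class reads, where the interval of Alas2 included 0 (-0.58 to 0.014). With median-of-ratios scaling the interval of Alas2 lay below 0 (-0.67 to -0.08). Alas2 encodes the erythroid 5-aminolevulinate synthase, the rate-limiting enzyme of haem synthesis in these cells (chrX:150547375-150570638, plus strand). Alas2 had 163 reads (23.1 RPM) in Ago2ADH and 227 reads (29.9 RPM) in wild type, giving a log2 ratio of -0.37 (-0.67 to -0.07). Its 5′ untranslated region, which holds the iron-responsive element, had 1 read in Ago2ADH and 7 in wild type, an interval that includes no difference (-8.19 to 0.26).

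Fech encodes ferrochelatase, the last enzyme of the pathway (chr18:64452914-64490251, minus strand), and had 164 reads (23.3 RPM) in Ago2ADH and 250 reads (32.9 RPM) in wild type, giving a log2 ratio of -0.50 (-0.79 to -0.21). Coding sequence of Fech had 33 reads in Ago2ADH and 67 in wild type (-0.91, interval -1.56 to -0.29), whereas its 5′ untranslated region of 133 nt had 21 in Ago2ADH and 18 in wild type (0.33, interval -0.65 to 1.33). All RefSeq class reads of Fech on the annotated transcript lay in the first 6 of 10 equal bins along it. In the last 4 bins 0 such reads lay in either library. The annotated transcript of 6571 nt thus had a long 3′ stretch with no RefSeq class read. Reads of the repeat-track class (rmsk) on this transcript, 124 in Ago2ADH and 174 in wild type, are not in these bins. The gap therefore describes 1 read class and not the whole mRNA.

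Tfrc, which encodes transferrin receptor 1, was the 1 gene of the 9 with an interval above 0 (chr16:32608920-32632794, plus strand). Tfrc had 229 reads (32.5 RPM) in Ago2ADH and 178 reads (23.4 RPM) in wild type, giving a log2 ratio of 0.47 (0.18 to 0.76), or 1.39-fold higher in Ago2ADH. The values were 0.37 (0.03 to 0.71) on the spliced transcript and 0.77 (0.19 to 1.37) outside it, but -0.38 (-1.71 to 0.90) in the non_genomic class, where 10 reads were seen in Ago2ADH and 14 in wild type. Tfrc fragments were dense at the 5′ end, with 264 reads per kb of 5′ untranslated region in Ago2ADH and 221 in wild type, whereas the coding sequence, 2292 nt long, held 60 reads in Ago2ADH and 55 in wild type. The sequence read most often among all 9 genes lies in that 5′ region, at transcript positions 64 to 80, with 6 reads in Ago2ADH and 8 in wild type.

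Car2 encodes carbonic anhydrase 2, which supplies bicarbonate for the band 3 exchanger (chr3:14886273-14900770, plus strand). Car2 had 120 reads (17.03 RPM) in Ago2ADH and 179 reads (23.6 RPM) in wild type, giving a log2 ratio of -0.47 (-0.81 to -0.13). On the spliced transcript alone it had 92 reads in Ago2ADH and 130 in wild type, and the interval of that ratio (-0.79 to 0.0067) reached past 0. Across junctions Car2 had 4 reads in Ago2ADH and 18 in wild type, giving a log2 ratio of -2.06 (-4.08 to -0.46).

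**Figure D4:**
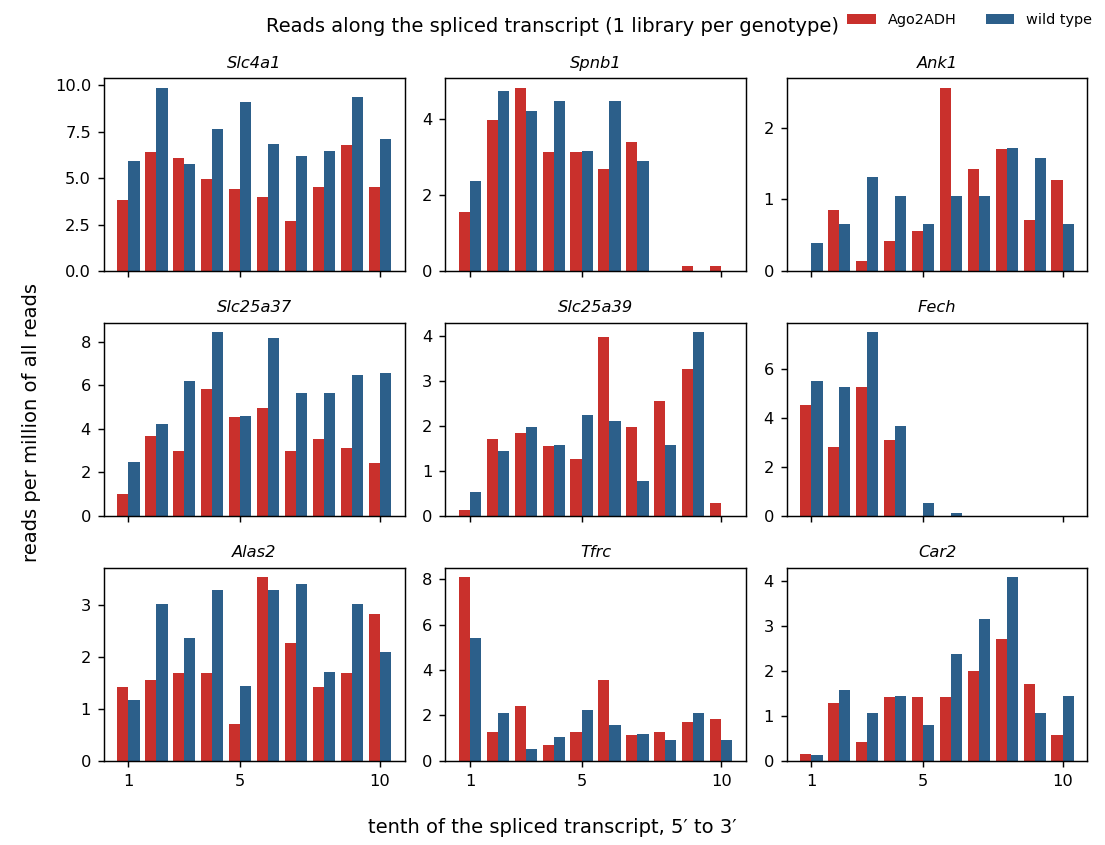
RPM (vertical axes, which differ between panels) in 10 equal bins along the spliced transcript, 5′ to 3′, with Ago2ADH bars left of wild type bars. Tfrc reads gather in the first bin, 57 reads in Ago2ADH and 41 in wild type, and Fech and Spnb1 have few or no RefSeq class reads near the 3′ end.

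By mRNA region, coding sequence of the 9 genes summed to 813 reads in Ago2ADH and 1124 in wild type, giving a log2 ratio of -0.36 (-0.49 to -0.23). The 3′ untranslated regions had 548 reads in Ago2ADH and 819 in wild type, giving a log2 ratio of -0.47 (-0.63 to -0.31). The 5′ untranslated regions had 88 reads in Ago2ADH and 95 in wild type, giving a log2 ratio of -0.0013 (-0.44 to 0.43). Most of the 5′ reads were of Tfrc and Fech.

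Levels were compared between genes as RPM per kb of spliced transcript. The whole annotated length was used, including the 3′ stretches of Fech and Spnb1 with few or no reads. Reads of the rmsk class were left out, and for Fech these numbered 124 in Ago2ADH and 174 in wild type. Its RefSeq class reads on the transcript numbered 111 in Ago2ADH and 172 in wild type. The places of Fech and Spnb1 in the orders below hold for this length and read class only. In Ago2ADH the order was Slc25a39 (11.03), Slc4a1 (10.6), Alas2 (9.27), Slc25a37 (8.40), Car2 (7.30), Tfrc (4.76), Fech (2.40), Spnb1 (2.21) and Ank1 (1.20). Neighbours in that order differed beyond counting error at Car2 over Tfrc, Tfrc over Fech and Spnb1 over Ank1, and the others did not. In wild type the order was Slc4a1 (16.3), Slc25a37 (13.997), Alas2 (12.2), Slc25a39 (9.68), Car2 (9.57), Tfrc (3.69), Fech (3.44), Spnb1 (2.53) and Ank1 (1.26). There the neighbours that differed were Slc4a1 over Slc25a37, Car2 over Tfrc, Fech over Spnb1 and Spnb1 over Ank1.

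The ratio of the 9 genes differed between read lengths. Reads under 20 nt numbered 627 in Ago2ADH and 891 in wild type (-0.40, interval -0.55 to -0.25), those of 20 to 24 nt 901 in Ago2ADH and 1193 in wild type (-0.30, interval -0.42 to -0.17), and those of 25 nt or more 758 in Ago2ADH and 846 in wild type (-0.05, interval -0.19 to 0.09). All RefSeq class reads gave -0.23, -0.05 and 0.0065 in the same 3 classes, so short reads were a smaller share of the whole class in Ago2ADH too, 28.8% there and 31.9% in wild type. The part of this library difference in the values of the 9 genes was not tested. Nor was the part of single deeply read genes in these sums of the whole class. Across junctions the longest reads were the lowest instead, with 34 reads of 25 nt or more in Ago2ADH and 87 in wild type (-1.25, interval -1.86 to -0.66).

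Single genes differed in this. Slc4a1 gave -1.03 under 20 nt, -0.55 at 20 to 24 nt and -0.30 at 25 nt or more, the last with an interval that included 0. Alas2 gave -0.63, -0.64 and 0.26 in the same classes, and Tfrc stayed above 0 in all 3, at 0.21, 0.53 and 0.70.

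**Figure D5:**
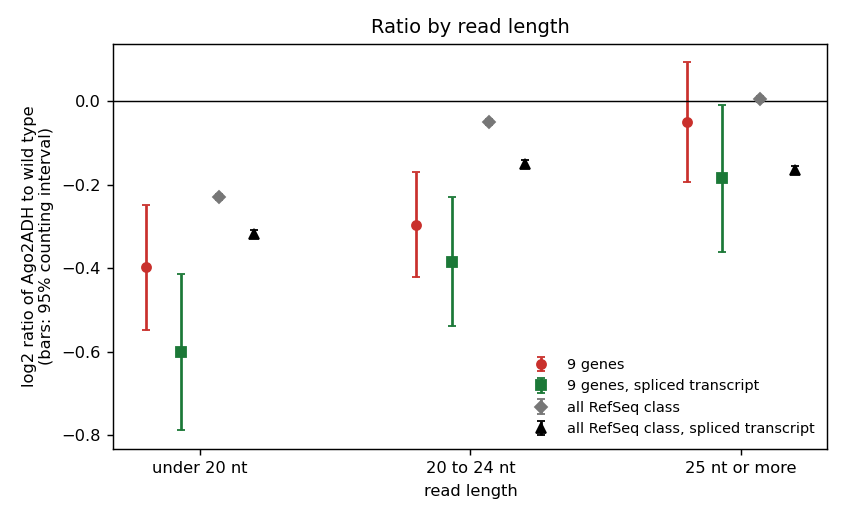
Log2 ratio of Ago2ADH to wild type (vertical axis, bars 95% counting interval) by read length for the 9 genes and for all RefSeq class reads, each in total and on spliced transcripts. The 9 genes lie at -0.40, -0.30 and -0.05 from short to long, and the whole class at -0.23, -0.05 and 0.0065.

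Other genes of the same pathways were counted from lists that leave out the 9 genes. For each pathway and erythroid list below, the share over all 3329 genes is 9.31% with an interval below 0 and 10.3% above. Of 31 names for membrane and skeleton proteins, 18 had 100 or more reads, 5 with an interval below 0 (among them Epb4.1, Ermap, Spna1 and Tpm3) and 2 above (Add3 and Bsg), and the median log2 ratio was -0.10. Spna1, the alpha chain that pairs with beta spectrin, fell, with 50 reads in Ago2ADH and 125 in wild type (-1.21, interval -1.72 to -0.73). Epb4.1, the protein 4.1 that joins spectrin to actin, had 450 reads in Ago2ADH and 726 in wild type (-0.58). Bsg, the cell surface protein basigin, had 330 reads in Ago2ADH and 218 in wild type (0.71). Cd47, a surface signal against uptake by macrophages, had a ratio of 0.23, and the glucose transporter Slc2a1 one of 0.06. Ermap, Tpm3 and Add3 were named after their values were seen.

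Haem synthesis and export held 25 names, of which 10 had 100 or more reads, and the intervals of all 10 included 0. The median log2 ratio was -0.10. Cpox, an enzyme late in the pathway, had 150 reads in Ago2ADH and 177 in wild type (-0.13). Abcb10, Slc25a28 and Isca1 gave -0.08, 0.18 and 0.01. Of 17 names for iron uptake and regulation, 13 had 100 or more reads, 1 with an interval below 0 (Ncoa4, the receptor for ferritin breakdown, -0.35) and 1 above (Exoc6, 0.47, named after its value was seen), with a median of -0.03. Fth1, the ferritin heavy chain, had 454 reads in Ago2ADH and 453 in wild type (0.11), Ftl2 gave -0.03 and Aco1, an iron regulatory protein, 0.01.

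Of 15 other carbonic anhydrase names, 1 (Car8, 0.38) had 100 or more reads, and its interval included 0. Car5a, the mitochondrial form, had 60 reads in Ago2ADH and 18 in wild type (1.85, interval 1.07 to 2.69), a sum under the minimum. Car10 had 12 reads in Ago2ADH and 27 in wild type (-1.06).

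Other erythroid mRNAs were measured beside these. The alpha globin Hba-a2 had 5225 reads in Ago2ADH and 9129 in wild type (-0.70), and the beta globin Hbb-b2 had 2106 in Ago2ADH and 3413 in wild type (-0.59). The near-identical copies Hba-a1 (-0.18) and Hbb-b1 (-0.96) make the split between copies uncertain. Of 35 names of erythroid regulators and late genes, 20 had 100 or more reads, 5 with an interval below 0 (Cited2, Gpx1, Tmcc2, Trim10 and Xpo7) and 0 above, and the median was -0.21. Tmcc2 had 280 reads in Ago2ADH and 525 in wild type (-0.80), and Xpo7, a nuclear export factor of maturing red cells, 187 in Ago2ADH and 351 in wild type (-0.80). Cat gave -0.17 and Foxo3 0.09. Cited2, Gpx1 and Trim10 were named after their values were seen.

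Markers of other cells in the liver were summed as well. Macrophage and granulocyte genes, 23 of 26 with reads, summed to 228 RPM in Ago2ADH and 258 RPM in wild type, giving a log2 ratio of -0.18 (-0.27 to -0.08). Of 11 with 100 or more reads, 4 had an interval below 0 (Emr1, Mrc1, Ngp and S100a9, named after their values were seen) and 0 above, and their median was -0.24, as was that of the 9 genes. Megakaryocyte genes, all 10 with reads, summed to 15.5 RPM in Ago2ADH and 18.2 RPM in wild type, with Treml1 at 0 in Ago2ADH. Endothelial and stellate genes, all 15 with reads, had 65.6 RPM in Ago2ADH and 68.2 RPM in wild type, and lymphoid genes, 9 of 12 with reads, 63.6 RPM in Ago2ADH and 63.2 RPM in wild type. Globins summed to a log2 ratio of -0.67. Hepatocyte genes summed to 0.0091, yet of 29 with 100 or more reads 13 had an interval below 0 and 4 above (among these 4 were Trf at 0.32 and Afp at 0.29), and their median was -0.07. Among all 3329 genes, 9.31% had an interval below 0 and 10.3% above. Intervals narrow as reads increase, so a deeply read gene can lie off 0 at a small ratio, as Alb did at -0.04. The part of cell numbers in the values of the 9 genes was not tested.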

How the data were processed

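The deposited values are raw, unscaled counts of reads, given by the authors for every distinct sequence in both libraries. A genome match number, an annotation class and a name stand beside each, per the file headers. For adapter trimming, aligner, genome build and annotation versions, nothing was given in the sources used here. Columns of other samples numbered 0. Counts were summed by gene symbol and scaled to all reads. Log2 ratios have exact conditional binomial 95% intervals, and shares and RPM have exact 95% intervals. Differences between the log2 ratios on and outside the spliced transcript have approximate (Woolf) 95% intervals from the reciprocals of the counts. The reads were amplified by PCR without molecular identifiers, so intervals, and the limit of 3 counts behind a 0, cover counting error only. No model of replicates could be fitted with 1 library per genotype.

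Reads were placed by exact match on GENCODE M21 (GRCm38) transcripts paired with RefSeq accessions, and gene coordinates are from that annotation, in GRCm38. Named genes were the 9, the up to 4 of each pathway list with most reads and 20 or more of them, list genes meeting the size rule, and the 3 other genes with 200 or more reads in each library whose ratio is nearest to the sum. The rule for printed sequences was the most-read one of each gene, shown where it lies in coding sequence; the junction sequences, the most-read of their genes, were added after seeing the data. The 9 genes and all lists were chosen with earlier results of these data known. The size rule was tested on simulated data. Python 3.11.15, numpy 2.4.6, scipy 1.17.1, pandas 2.3.3 and matplotlib 3.10.9 were used. Alternatives were scaling, distinct sequences, the leading sequence left out, genome matches, read length, fold and read limits and each gene left out; read place and the non_genomic class were added after seeing the data. A list gene counted in the sums is not reported here by name.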

Additional observations from a re-analysis of the deposited data

How the results depend on the processing

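Of 72 values of single genes under other scalings, counting and read lengths, 69 moved by less than counting error. Each rescaling shifts all genes equally, and leaving out the leading sequence removes at most 14 reads of a gene. For those settings little movement was set in advance, so the 69 do not measure robustness. An interval that newly included 0 could still be among the 69. Scaled to RefSeq class reads, the sum of the 9 genes was -0.16 and 3 genes had an interval below 0, those of Slc25a37 and Alas2 then including 0. With reads of 25 nt or more, the sum was -0.049, 0 genes had an interval below 0, the median turned to 0.065 and Alas2 to 0.26; the cause was not tested. Chosen after seeing the data, reads on the spliced transcript gave a sum of -0.38. Reads outside it gave a sum of 0.017, 1 gene below and 2 above 0, and Slc25a37 at 0.36. Of the 9 genes, 6 had 100 or more reads there. Without Slc25a37 the outside sum was -0.14. Reads of the non_genomic class gave a sum of -0.73, 2 genes below and 0 above 0, a median of -0.83 and Tfrc at -0.38. With a 1.5-fold limit 1 gene, Slc4a1, passed. Shares of all genes were not computed for the counts at 1.5-fold, at 25 nt or more or under other scalings. None is given for the outside counts, so these counts describe the 9 genes only. The sum without 1 gene ranged between -0.31 without Tfrc and -0.16 without Slc4a1. Median-of-ratios scaling shifted all genes by 0.0040 on the log2 scale. No paired analysis was possible because each genotype has 1 library. Depth limits single sequences and the elements and junctions of single genes.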

Other observations

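Some fragments of these mRNAs sit in the repeat-track class (rmsk), which the sums above leave out. On the spliced transcript of Fech they numbered 124 in Ago2ADH and 174 in wild type, a log2 ratio of -0.38, and on that of Slc4a1 26 in Ago2ADH and 63 in wild type, a log2 ratio of -1.17. The 3 genes whose ratio was nearest to the summed ratio of the 9 genes, by this 1 value over 2 libraries, were March3, with 515 reads in Ago2ADH and 659 in wild type, Rps12, with 1866 in Ago2ADH and 2386 in wild type, and Gc, with 798 in Ago2ADH and 1027 in wild type. Each had a log2 ratio of -0.25.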
